A study of Mus musculus with 8 samples.

Results

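The dystrophin-glycoprotein complex links the cytoskeleton of a cell to the matrix outside it, and 8 of its genes were followed here in mice carrying a knock-in (KI) model of SCA17 and in wild-type (WT) mice. They were Dmd on chromosome X, Utrn on 10, Dag1 on 9, Sgca and Sgcd on 11, Sgcb and Nos1 on 5, and Sntb1 on 15, chosen by name. Each had 1 probe set with a single gene symbol, so no choice between probe sets was needed. They made up 8 of the 19938 genes on the array with such a probe set, and all 8 passed the filter on low values in both tissues.

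In a muscle fibre, dystrophin binds actin at one end and the transmembrane protein beta-dystroglycan at the other. Alpha-dystroglycan, on the outside, holds laminin through its sugar chains, and the sarcoglycans and sarcospan fix the unit in the membrane, while syntrophins, dystrobrevins and neuronal nitric oxide synthase attach on the inside. Loss of single components causes muscular dystrophies, and in the brain related complexes sit at the endfeet of glia and at synapses of neurons.

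SCA17 is an inherited ataxia in which a glutamine repeat of TBP, the protein that binds the TATA box, is too long. Total RNA of the tibialis anterior muscle and of the cerebellum was hybridised to 8 Affymetrix Mouse Gene ST arrays, 2 per group: KI muscle (replicates 94 and 97), WT muscle (95 and 96), KI cerebellum (94 and 97) and WT cerebellum (95 and 96). The mice were 3 months old. The labels speak of 3 mice per genotype and do not say that each array is a separate mouse, so p values measure the spread between these arrays, which may be technical. The sources used here give neither strain nor sex, nor the length of the repeat or the way the KI allele is expressed.

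All values are log2 expression levels, comparable between arrays for 1 probe set but not between probe sets. The median of an array lay between 5.40 and 5.51, and the 40th percentile, used as the floor for testing, between 4.96 and 5.05. The arrays of a group correlated with r from 0.977 to 0.989 over probe sets. Tissue labels fitted their markers: 8 of 8 genes of skeletal fibres were called higher in muscle. In the cerebellum, 4 of 4 Purkinje and 5 of 5 granule cell genes were called higher. Of all 14708 genes tested, 1615 were called higher in muscle and 2208 lower. But 3 of the fibre genes never reached the 40th percentile in the cerebellum, nor 2 Purkinje and 2 granule cell genes in muscle. Their calls are no support. The labels rest on the other 5 fibre, 2 Purkinje and 3 granule cell genes, which passed the filter in both tissues. Tbp itself was at 6.80 and 6.94 in KI muscle against 6.70 and 6.81 in WT muscle, and at 7.68 and 7.52 in KI cerebellum against 7.85 and 7.71 in WT cerebellum. The level of Tbp says nothing of the length of its repeat and checks no genotype label.

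The complex was first described by tissue. Of the 8 members, 5 were called higher in muscle than in the cerebellum and none lower: Dmd, Dag1, Sgca, Sgcb and Sgcd. A gene was called here at an adjusted p under 0.05 and a difference of at least 2-fold. Of all 14708 genes tested, 26.0% were called in either direction and 11.0% higher in muscle. The median difference of the 8 members was 1.32, against 0.035 over all genes. In a bulk tissue, fewer cells of a type and less RNA per cell cannot be told apart.

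Dmd encodes dystrophin, and its probe set (10600604) stood at 8.87 and 9.11 in KI muscle and 8.60 and 8.83 in WT muscle. In the cerebellum it read 6.07 and 6.25 in KI and 6.38 and 6.31 in WT. All muscle arrays were above all cerebellum arrays, by 2.60 ± 0.093 (SE) or 6.06-fold (limma, adjusted p = 6.19e-09). Brain also uses shorter dystrophins that start inside the gene, and the probe set gives 1 value for all of them that it reads. Utrn (probe set 10367843) encodes utrophin, the autosomal relative of dystrophin, found at the neuromuscular junction of adult fibres. It read 7.06 and 7.09 in KI muscle and 6.76 and 7.06 in WT muscle, and 6.94 and 7.01 in KI cerebellum and 6.75 and 6.78 in WT cerebellum. The tissues overlapped, with a difference of 0.12 ± 0.086 (SE; 95% interval -0.07 to 0.32; adjusted p = 0.222).

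Dag1 (probe set 10596893) encodes the precursor of both dystroglycans. It stood at 9.54 and 9.42 in KI muscle and 9.46 and 9.47 in WT muscle, and at 8.22 and 8.15 in KI cerebellum and 8.14 and 8.21 in WT cerebellum. The tissues did not overlap, and muscle was 2.45-fold higher (adjusted p = 1.63e-07). The sarcoglycans are small membrane proteins that assemble with each other next to dystroglycan. Sgca (probe set 10390090), the alpha subunit, confined largely to striated muscle, read 9.87 and 9.93 in KI muscle and 10.08 and 10.24 in WT muscle. In the cerebellum it read 4.69 and 5.12 in KI and 5.19 and 4.70 in WT, around the 40th percentile, so the size of its 34.4-fold difference (5.10 ± 0.129, SE; adjusted p = 6.74e-10) depends on the background of the array. Sgcb (probe set 10530633), the beta subunit, is used outside muscle as well. Its values were 9.53 and 9.54 in KI muscle and 9.52 and 9.59 in WT muscle, and 8.18 and 8.20 in KI cerebellum and 8.25 and 8.18 in WT cerebellum. It was 2.53-fold higher in muscle (adjusted p = 9.98e-08), with no overlap between tissues. Sgcd (probe set 10385466), the delta subunit, read 9.07 and 8.92 in KI muscle and 8.88 and 9.04 in WT muscle, and 5.35 and 5.28 in KI cerebellum and 5.28 and 5.30 in WT cerebellum. The tissues lay far apart, and muscle was 12.8-fold higher (adjusted p = 2.58e-10). The cerebellum values of Sgcd lay below the array medians, so the size of its difference also depends on the background of the array.

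Sntb1 (probe set 10428698) encodes beta-1-syntrophin, an adaptor that binds dystrophin with its carboxy-terminal part and signalling proteins with its PDZ domain. It read 6.97 and 6.60 in KI muscle and 7.16 and 7.47 in WT muscle, and 6.47 and 6.09 in KI cerebellum and 6.25 and 6.30 in WT cerebellum. All muscle arrays were above all cerebellum arrays, but the 1.71-fold difference (adjusted p = 0.000287) was under the 2-fold limit. Nos1 (probe set 10524909) encodes neuronal nitric oxide synthase, which syntrophin and dystrophin anchor at the fibre membrane and which many neurons make. It read 7.77 and 7.98 in KI muscle and 7.89 and 8.35 in WT muscle, and 7.73 and 8.04 in KI cerebellum and 7.74 and 7.94 in WT cerebellum. The tissues overlapped, with a difference of 0.13 ± 0.123 (SE; 95% interval -0.14 to 0.41; adjusted p = 0.347).

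**Figure D1:**
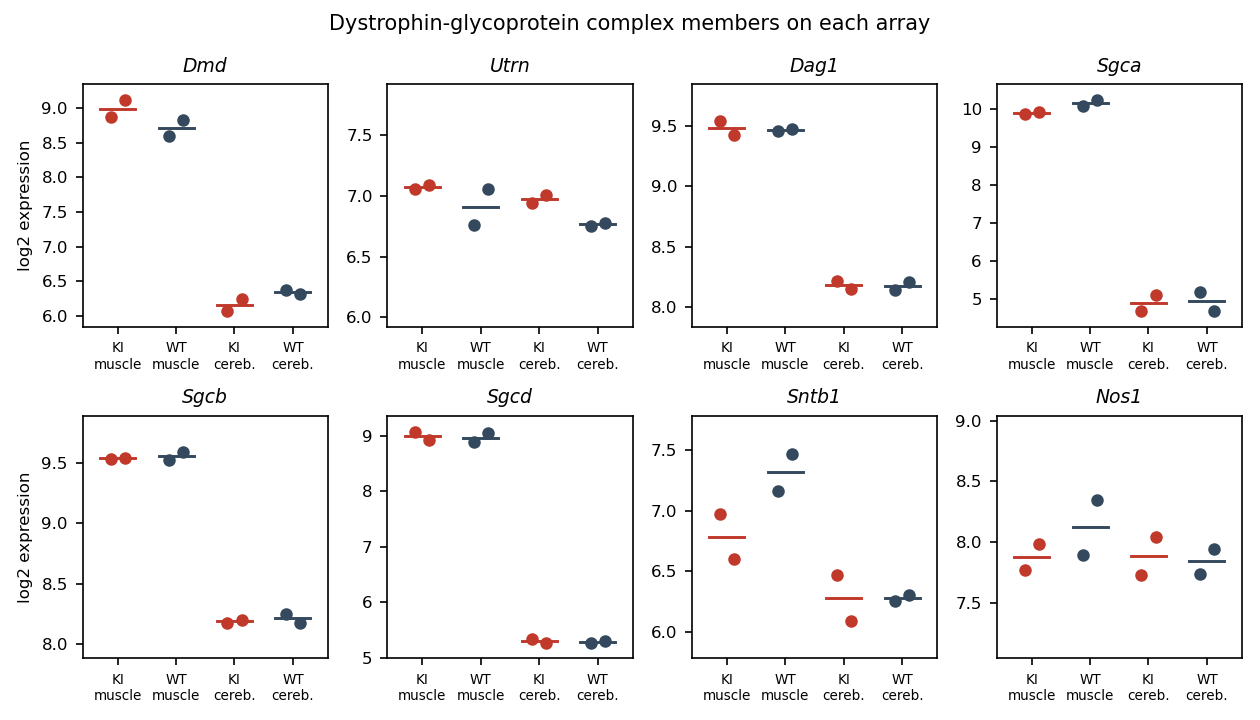
Log2 expression of the 8 members on each of the 8 arrays, with KI left of WT and muscle left of cerebellum; points are arrays, bars are means of 2 arrays, and the vertical scale differs between panels and does not start at 0. Dmd, Dag1, Sgca, Sgcb and Sgcd form a muscle level and a cerebellum level, and in Sntb1 both KI muscle arrays (6.97 and 6.60) lie below both WT muscle arrays (7.16 and 7.47).

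The promoters of the 5 members called higher in muscle are shown because the size of the tissue difference ranged among them from 2.45-fold to 34.4-fold. The 250 bases before the start of each gene are given 5′ to 3′ in the direction of transcription, from RefSeq promoters on assembly GRCm38.p6. Capitals mark matches to 5 motifs: the E-box CANNTG, bound by myogenic bHLH proteins such as MyoD among others; MCAT, CATTCC, bound by TEAD proteins; the GC box GGGCGG, bound by Sp1 and related proteins; the CArG box of serum response factor; and the MEF2 site. For Dmd and Dag1 the table held 2 starts each, and 1 is shown.

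Sgca, chr11:94976328-94976577, minus strand: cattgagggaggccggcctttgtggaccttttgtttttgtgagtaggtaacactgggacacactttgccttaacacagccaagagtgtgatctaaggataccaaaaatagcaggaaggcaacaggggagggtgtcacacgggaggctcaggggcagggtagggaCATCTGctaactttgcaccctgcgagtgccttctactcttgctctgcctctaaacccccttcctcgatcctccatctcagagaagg
Sgcd, chr11:47379326-47379575, minus strand: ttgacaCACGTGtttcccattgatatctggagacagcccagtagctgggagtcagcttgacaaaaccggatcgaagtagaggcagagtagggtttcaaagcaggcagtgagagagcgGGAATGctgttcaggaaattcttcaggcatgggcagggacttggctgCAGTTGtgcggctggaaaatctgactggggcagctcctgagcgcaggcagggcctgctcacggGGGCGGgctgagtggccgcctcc
Dmd, chrX:82948620-82948869, plus strand: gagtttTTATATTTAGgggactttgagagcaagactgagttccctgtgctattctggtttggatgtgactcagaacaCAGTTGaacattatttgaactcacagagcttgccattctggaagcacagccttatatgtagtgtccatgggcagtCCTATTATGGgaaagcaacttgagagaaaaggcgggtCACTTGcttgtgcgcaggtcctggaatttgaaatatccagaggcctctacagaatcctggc
Sgcb, chr5:73647738-73647987, minus strand: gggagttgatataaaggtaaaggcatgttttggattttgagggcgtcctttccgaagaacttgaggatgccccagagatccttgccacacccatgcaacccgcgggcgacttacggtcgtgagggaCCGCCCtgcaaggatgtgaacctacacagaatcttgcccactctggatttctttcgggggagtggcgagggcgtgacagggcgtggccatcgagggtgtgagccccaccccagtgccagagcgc
Dag1, chr9:108263959-108264208, minus strand: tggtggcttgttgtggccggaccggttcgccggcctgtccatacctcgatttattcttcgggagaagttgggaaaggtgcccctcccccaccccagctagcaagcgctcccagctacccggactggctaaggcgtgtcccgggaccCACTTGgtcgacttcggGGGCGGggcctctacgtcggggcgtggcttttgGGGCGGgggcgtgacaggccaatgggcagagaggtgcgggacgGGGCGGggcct

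An E-box stood 86 bases before the start of Sgca, the only motif found there. Sgcd had E-boxes 244 and 86 bases before the start, an MCAT motif at 133 and a GC box at 23. The Dmd window held E-boxes at 173 and 61, a CArG box at 98 and a MEF2 site at 244. Sgcb, with the muscle level 2.53-fold above the cerebellum level, had only a GC box, at 124. Dag1 had GC boxes at 87, 54 and 11 and an E-box at 104. No motifs overlapped, and both strands were searched. Over the same 250 bases of 32851 promoters, 66.2% held an E-box, 12.6% an MCAT motif and 32.7% a GC box, while a CArG box was in 1.47% and a MEF2 site in 2.92%. These are matches of letters and no measure of binding. The GC content was 52.8% for Sgca, 58.0% for Sgcd, 45.2% for Dmd, 58.4% for Sgcb and 67.6% for Dag1, against a median of 52.4% over all promoters. In all, 7 of the 8 members had an entry in the promoter table.

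The next comparison asked whether expression of the complex differed between KI and WT muscle. None of the 8 members was called by limma at an adjusted p under 0.05, where 3.55% of the 13933 genes tested were called. At an unadjusted p under 0.05 there was 1 member, Sntb1, and 2822 of all genes. Positive differences were found for 4 members and negative ones for 4, with a median of -0.002 against 0.026 over all genes. The KI arrays did not overlap the WT arrays for 3 of the 8 (Dmd above, Sgca and Sntb1 below), and for 50.2% of all genes.

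Dmd was at 8.99 ± 0.167 in KI muscle and 8.71 ± 0.159 in WT muscle (SD, n = 2 each). Both KI arrays were above both WT arrays, by 0.28 ± 0.131 (SE), with a 95% interval from -0.02 to 0.57 and an adjusted p of 0.273. Utrn, which many dystrophic muscles express more strongly, differed by 0.16 ± 0.121 (SE; 95% interval -0.11 to 0.44; adjusted p = 0.491), and its KI and WT arrays overlapped. Dag1 differed by 0.01 ± 0.104 (SE; 95% interval -0.22 to 0.25; adjusted p = 0.961). The residual spread of Dag1 was at the 6.25th percentile of all tested genes, so its arrays lay close together in each group.

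Among the sarcoglycans, Sgcb differed by -0.02 ± 0.101 (SE; 95% interval -0.25 to 0.21) and Sgcd by 0.04 ± 0.112 (SE; -0.22 to 0.29). Sgca had both KI arrays below both WT arrays, with a difference of -0.26 ± 0.182 (SE; 95% interval -0.67 to 0.15; adjusted p = 0.466). Of the 3 subunits Sgca had the widest interval. The largest difference of any member was that of Sntb1, at 6.79 ± 0.263 in KI muscle and 7.32 ± 0.222 in WT muscle (SD, n = 2 each). It was -0.53 ± 0.174 (SE), 1.44-fold lower, with an interval from -0.92 to -0.14, an unadjusted p of 0.0133 and an adjusted p of 0.134. Nos1 differed by -0.25 ± 0.174 (SE; -0.64 to 0.14; adjusted p = 0.463), and its arrays overlapped.

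A difference of 1.5-fold in either direction lay outside the 95% interval for 5 of the 8 members in muscle (Dmd, Utrn, Dag1, Sgcb and Sgcd), or 62.5%, against 74.8% of all genes. For Sgca, Sntb1 and Nos1 the interval reached beyond a 1.5-fold reduction. That of Sgca was widened by the spread of its cerebellum arrays. Markers of other cell types and of the fibres themselves were also read. Of 8 fibre markers, 7 had both KI arrays below both WT arrays, against 19.9% of all genes. Casq1 was called lower by limma (-0.68 ± 0.120, SE; adjusted p = 0.0199), as were 0.890% of all genes. The fibre markers summed to 14.45 and 14.58 in KI muscle against 14.90 and 15.01 in WT muscle. Macrophage markers summed to 9.54 and 9.34 in KI muscle against 9.17 and 9.05 in WT muscle. None of 6 was called by limma, and 2 had an unadjusted p under 0.05, against 20.3% of all genes. All 6 estimates were positive, against 55.0% of all genes. Both KI arrays were above both WT arrays in 4 of the 6, against 30.3% of all genes. Tendon cell markers summed to 10.58 and 9.08 in KI muscle against 10.08 and 10.34 in WT muscle, so KI replicate 97 was lowest. Fibroblast markers summed to 12.04 and 11.37 in KI muscle against 11.54 and 11.65 in WT muscle. The part of these cell types in the members' values was not tested.

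**Figure D2:**
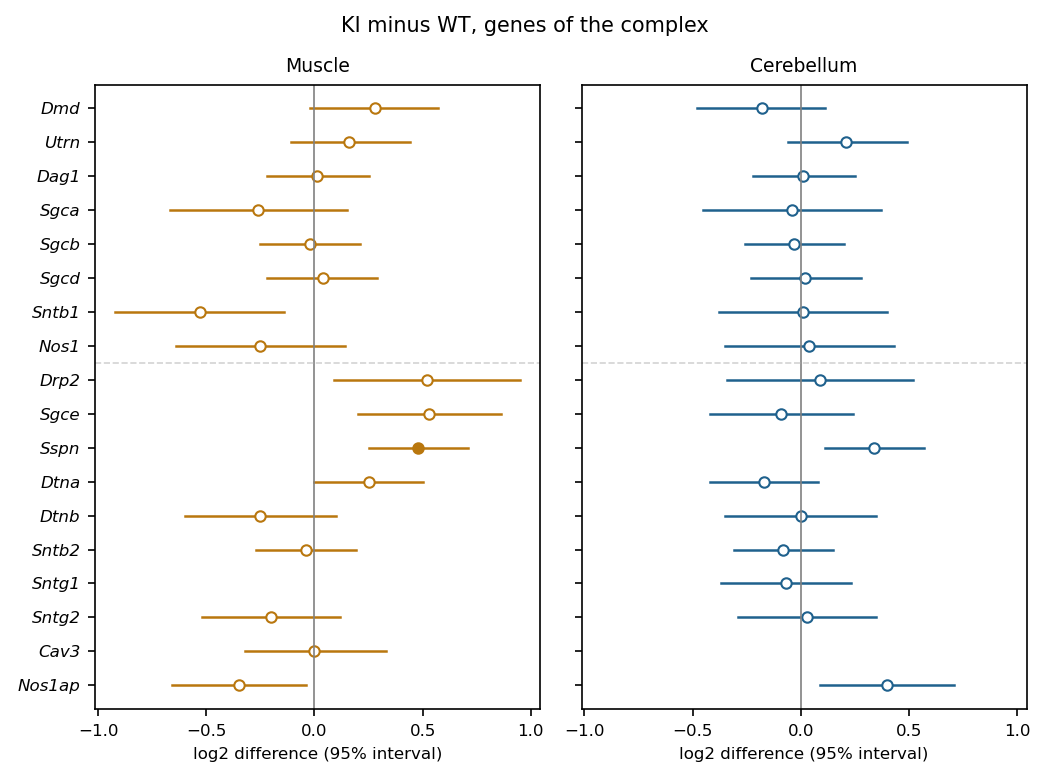
KI minus WT log2 differences in muscle and in the cerebellum for the 8 members (above the dashed line) and the other tested genes of the complex; points are limma estimates, lines are 95% intervals, and filled points have an adjusted p under 0.05. Sspn in muscle (0.48) is the filled point, and no member is filled in either tissue.

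In the cerebellum, none of the 8 members was called between KI and WT, where 0.205% of 13641 genes were called. No member reached an unadjusted p of 0.05, which 727 of all genes did. The differences ran from -0.18 to 0.21, with 5 positive and 3 negative, and their median was 0.008 against -0.008 over all genes. KI and WT arrays did not overlap for 2 of the 8, and for 35.3% of all genes. These were Dmd, lower in both KI arrays by -0.18 ± 0.131 (SE; 95% interval -0.48 to 0.11), and Utrn, higher in both by 0.21 ± 0.121 (SE; -0.06 to 0.49). The adjusted p of both was 0.998. For the other 6 the differences were small: Dag1 0.01, Sgca -0.04, Sgcb -0.03, Sgcd 0.02, Sntb1 0.01 and Nos1 0.04. The 95% interval of the array values excluded a 1.5-fold difference for 8 of 8 members, as it did for 87.3% of all genes. But Sgca lay around the 40th percentile there and Sgcd below the array medians, where differences are damped. For these genes the interval cannot exclude such a difference in the transcript. Purkinje cell markers had a summed level of 11.71 and 11.93 in KI cerebellum against 12.56 and 12.40 in WT cerebellum. Both KI arrays were below both WT arrays for 4 of 4 of them, and none was called by limma, 3 of them having an unadjusted p under 0.05. Granule cell markers summed to 12.76 and 12.94 in KI cerebellum against 13.24 and 13.06 in WT cerebellum. Of their estimates 5 of 5 were negative, as were 7163 of 13641 over all genes. Microglia and macrophage markers summed to 8.87 and 8.72 in KI cerebellum against 8.50 and 8.53 in WT cerebellum. Of their tested estimates 5 of 5 were positive, against 47.5% of all genes. The part of these cell types in the members' values was not tested.

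Whether the genotype difference itself differed between tissues was tested as an interaction, the muscle difference minus the cerebellum difference. None of the 8 members was called by limma, where 0.143% of 14708 genes were, and 1 member, Dmd, had an unadjusted p under 0.05, as did 2033 of all genes. The genotype difference of Dmd was higher in muscle by 0.46 ± 0.185 (SE; 95% interval 0.04 to 0.88; adjusted p = 0.329), with KI above WT in muscle and below WT in the cerebellum on every array. The interaction of Sntb1 was -0.54 ± 0.246 (SE; -1.09 to 0.02; adjusted p = 0.373) and that of Nos1 -0.29 ± 0.246 (SE; adjusted p = 0.610). Dag1, Sgcb and Sgcd came to between 0.00 and 0.01, with standard errors of 0.147, 0.143 and 0.158. A 1.5-fold difference between the tissues' genotype effects was outside the interval for 4 of 8 members (Utrn, Dag1, Sgcb and Sgcd), against 41.3% of all genes. The cerebellum values of Sgcd lay below the array medians, so for its transcript the interval cannot exclude such a difference.

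The 3 genes whose pattern most resembled that of Dmd over the 8 arrays, after each value was centred on its tissue mean, were Rchy1 (r = 0.991), Chd8 (r = 0.983) and Sf3a3 (r = 0.973). These were the highest of all genes and are a description. Their KI minus WT differences were 0.12, 0.16 and 0.27 in muscle and -0.08, -0.14 and -0.15 in the cerebellum.

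Of the other genes listed for the complex, 9 were tested in each tissue. In muscle 1 of the 9 was called higher in KI, against 2.66% of all genes, and none lower. An unadjusted p under 0.05 was found for 4 of them, against 20.3% of all genes. The median difference of the 9 was 0.004. The gene that rose was Sspn (probe set 10542740), encoding sarcospan, a membrane protein with 4 transmembrane segments that joins the sarcoglycans. It stood at 8.47 and 8.54 in KI muscle against 8.04 and 8.02 in WT muscle. The groups were well apart, and KI was 1.39-fold higher (0.48 ± 0.102, SE; 95% interval 0.25 to 0.71; adjusted p = 0.0378). The call was lost without any 1 of the 8 arrays (adjusted p from 0.0525 to 0.149), although the difference kept its direction. In the cerebellum Sspn was at 5.79 and 5.89 in KI against 5.48 and 5.52 in WT. Both KI arrays were again higher, by 0.34 ± 0.102 (SE; unadjusted p = 0.00847, adjusted p = 0.608). The genotype difference in muscle minus that in the cerebellum was 0.14 ± 0.145 (SE; adjusted p = 0.686).

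Sgce, the epsilon-sarcoglycan, takes the place of the alpha subunit in many tissues outside striated muscle. It was at 7.63 and 7.23 in KI muscle against 6.89 and 6.91 in WT muscle. Both KI arrays were above both WT arrays (0.53 ± 0.147, SE; adjusted p = 0.0887), and the difference in the cerebellum was -0.09 (interaction 0.62, adjusted p = 0.262). Drp2, dystrophin-related protein 2, known from the myelin-forming Schwann cell, read 6.67 and 6.59 in KI muscle against 5.77 and 6.45 in WT muscle. Its difference of 0.52 ± 0.191 (SE) had an adjusted p of 0.172. It rested on 1 WT array: without WT muscle replicate 95 the difference was 0.18 (adjusted p = 0.612), and without WT muscle replicate 96 it was 0.87 (adjusted p = 0.0285). Schwann cell markers summed to 10.07 and 9.78 in KI muscle against 9.55 and 10.09 in WT muscle. But 2 of the 3 tested had both KI arrays below both WT arrays, against 19.9% of all genes, and their median was -0.22. The part of Schwann cells in the value of Drp2 was not tested. Dtna and Dtnb encode the dystrobrevins, which bind dystrophin and syntrophins. Dtna was at 9.14 and 9.13 in KI muscle against 8.78 and 8.99 in WT muscle (0.25 ± 0.111, SE; adjusted p = 0.255), and both KI arrays were below WT in the cerebellum (-0.17, adjusted p = 0.998). Dtnb differed by -0.25 ± 0.155 (SE; adjusted p = 0.403) in muscle.

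Nos1ap encodes an adaptor that binds the PDZ domain of neuronal nitric oxide synthase. The brighter of its 2 probe sets was at 5.68 and 5.74 in KI muscle against 6.25 and 5.87 in WT muscle, and at 6.83 and 6.97 in KI cerebellum against 6.46 and 6.54 in WT cerebellum. KI was below WT in muscle (-0.35 ± 0.138, SE; adjusted p = 0.199) and above WT in the cerebellum (0.40 ± 0.138, SE; adjusted p = 0.760). The interaction was -0.75 with an unadjusted p of 0.00378 and an adjusted p of 0.157. Among the complex, Dmd and Dtna had both KI arrays above WT in muscle and below WT in the cerebellum, as had 854 of the 12866 genes tested in both tissues. Nos1ap had the reverse order, as had 434 genes, and Sspn was above in both, as were 586. Sntb2 (-0.04) and Cav3, the muscle caveolin (0.00 ± 0.144, SE; adjusted p = 0.995), had differences near 0 in muscle, and that of Sntg2 was -0.20.

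In the cerebellum none of the 9 other genes tested was called by limma. An unadjusted p under 0.05 was found for 2, Sspn and Nos1ap, against 5.33% of all genes. Between tissues, 1 of the 8 tested in both was called higher in muscle, Sspn (6.05-fold, adjusted p = 1.20e-09), and 2 were called lower, Sgce (2.23-fold) and Dtnb (3.26-fold). Another 2 genes passed the filter only through the tissue where they were higher, so their calls between tissues are no support. Cav3 was below the 40th percentile on all 4 cerebellum arrays (4.50 to 4.76), with a difference of 1.38. Sntg1, for gamma-1-syntrophin, was below it on all 4 muscle arrays (4.01 to 4.34), with a difference of -1.57. The size of both depends on the background of the array. Thus the sarcoglycans ran both ways, with Sgca, Sgcb and Sgcd higher and Sgce lower in muscle. Over members and the rest together, 6 of the 16 genes tested in both tissues were called higher and 2 lower in muscle, against 10.2% higher and 13.2% lower of the 12866 such genes in all.

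**Figure D3:**
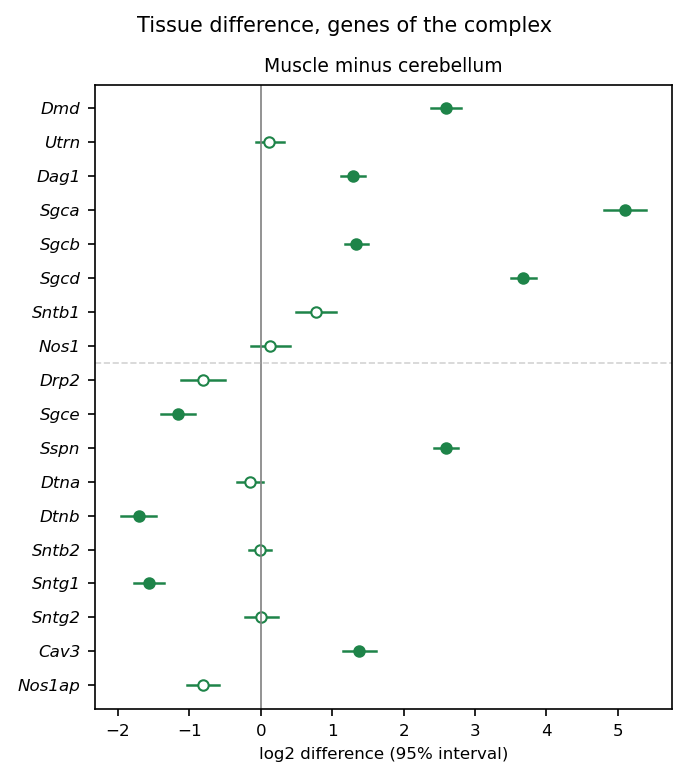
Muscle minus cerebellum log2 differences for the 8 members (above the dashed line) and the other tested genes of the complex; points are limma estimates over the 8 arrays, lines are 95% intervals, and filled points have an adjusted p under 0.05 and a difference of at least 2-fold. Sgca (5.10) lies farthest to the right and Dtnb (-1.70) farthest to the left, and Cav3 and Sntg1 were below the 40th percentile in 1 of the tissues.

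Outside the membrane, dystroglycan binds laminins, agrin, perlecan and other proteins of the basement membrane. Of 11 such genes tested in muscle, limma called none, and 3 had an unadjusted p under 0.05, all with KI above WT. Over all genes 20.3% had such a p. Lamc1, the common laminin gamma chain, was at 8.18 and 8.19 in KI muscle against 7.78 and 7.88 in WT muscle (0.35 ± 0.107, SE; adjusted p = 0.110). Lama2, the laminin chain of the adult fibre, was at 8.25 and 8.14 in KI muscle against 7.86 and 7.94 in WT muscle (0.30 ± 0.111, SE; adjusted p = 0.181). Both KI arrays were above both WT arrays in either gene, as in 5 of the 11, while 2 had both below, against 30.3% and 19.9% of all genes. Agrn, for agrin, differed by 0.27 (adjusted p = 0.222) and Hspg2, for perlecan, by 0.25 (adjusted p = 0.300), and the median of the list was 0.199. In the cerebellum none of 10 was called or had an unadjusted p under 0.05. Biglycan, Bgn, had the smallest p there, with 0.43 ± 0.209 (SE; adjusted p = 0.975).

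The enzymes that build the laminin-binding sugar of dystroglycan were called in neither tissue, 0 of 12 by limma in each, and 0 had an unadjusted p under 0.05. The medians were 0.001 in muscle and -0.026 in the cerebellum. The values with the smallest p in muscle were -0.27 ± 0.134 (SE; adjusted p = 0.303) for B3galnt2, a transferase that extends the core glycan, and 0.23 (adjusted p = 0.328) for Pomt2, which adds the first mannose. Dpm3, a subunit of the enzyme that supplies mannose (0.24, adjusted p = 0.343), and Rxylt1, a xylosyltransferase (-0.18, adjusted p = 0.449), followed.

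At the costamere, the dystrophin complex works beside integrins, vinculin and talin. Of 13 such genes in muscle 1 was called, higher in KI, as were 2.66% of all genes, and 5 had an unadjusted p under 0.05. Flnc (probe set 10536845), for filamin C, which binds actin and the sarcoglycans, was at 10.34 and 10.62 in KI muscle against 9.72 and 9.79 in WT muscle. The difference was 0.72 ± 0.145 (SE; 95% interval 0.40 to 1.05; adjusted p = 0.0306). That call was lost without any 1 of the muscle arrays, with adjusted p from 0.0527 to 0.154. Vcl, for vinculin, was at 8.66 and 8.76 in KI muscle against 8.21 and 8.23 in WT muscle (0.49 ± 0.116, SE; adjusted p = 0.0534). Tln1, for talin, was at 8.00 and 8.05 in KI muscle against 7.57 and 7.63 in WT muscle (0.42 ± 0.104, SE; adjusted p = 0.0600). Synm, for the intermediate filament protein synemin, had the opposite order, at 9.20 and 9.05 in KI muscle against 9.62 and 9.66 in WT muscle (-0.52 ± 0.161, SE; adjusted p = 0.119). In all, 7 of the 13 had both KI arrays above both WT arrays and 1 had both below, against 30.3% and 19.9% of all genes, and the median was 0.153. The 5 with an unadjusted p under 0.05 stand against 20.3% of all genes. None of 12 was called in the cerebellum by limma and 0 had an unadjusted p under 0.05, with a median of 0.004. Flnc differed by 0.31 ± 0.145 (SE; adjusted p = 0.941) there and Itga7, the muscle laminin receptor subunit, by -0.30 ± 0.157 (SE; adjusted p = 0.998). The cerebellum values of Flnc lay below the array medians (5.28 and 5.46 in KI, 4.90 and 5.21 in WT).

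Genes of membrane repair, which reseal torn fibre membranes, had 0 of 9 called by limma in muscle and 3 with an unadjusted p under 0.05. All 9 estimates were positive, as were 55.0% over all genes. Those of Cavin1 (0.00 ± 0.11, SE) and Myof (0.08 ± 0.27, SE) were near 0 and changed sign under some alternatives. Both KI arrays were above both WT arrays in 6 of the 9, against 30.3% of all genes. The median was 0.278, and 20.3% of all genes had an unadjusted p under 0.05. Dysf, for dysferlin, was at 8.38 and 8.48 in KI muscle against 8.05 and 7.68 in WT muscle (0.57 ± 0.133, SE; adjusted p = 0.0527). Anxa2 (0.31, adjusted p = 0.179), Anxa6 (0.31, adjusted p = 0.206) and Anxa1 (0.40, adjusted p = 0.272) encode annexins. In the cerebellum 0 of 7 were called by limma, and the median was 0.097. Only Anxa2 had an unadjusted p under 0.05 there (0.28 ± 0.117, SE; adjusted p = 0.892), as had 5.33% of all genes. It read 5.34 and 5.23 in KI cerebellum against 4.97 and 5.03 in WT cerebellum, all below the array medians. The size of that difference depends on the background of the array.

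Of the glial endfoot genes, which the complex anchors in brain, none of 3 was called in the cerebellum and none had an unadjusted p under 0.05. The water channel Aqp4 differed by 0.25 ± 0.185 (SE) and the potassium channel Kcnj10 by -0.22 ± 0.184 (SE), both with an adjusted p of 0.998. In muscle Aqp4, a sarcolemmal partner of the complex in fast fibres, differed by -0.35 (adjusted p = 0.327). Markers of muscle regeneration had 0 of 5 called by limma in muscle and, against 20.3% of all genes, 2 with an unadjusted p under 0.05. Myh3, also listed, did not pass the filter in muscle and was not tested (4.87 and 4.68 in KI, 4.88 and 5.05 in WT). The 2 were Myog and Ncam1. Myog, for myogenin, was at 5.31 and 5.08 in KI muscle against 5.86 and 5.48 in WT muscle (-0.47, adjusted p = 0.159). Its KI values lay below the array medians, so the size of its difference depends on the background of the array. Ncam1, an adhesion molecule of immature or denervated fibres, was at 7.38 and 7.06 in KI muscle against 6.71 and 6.96 in WT muscle (0.38, adjusted p = 0.155).

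**Figure D4:**
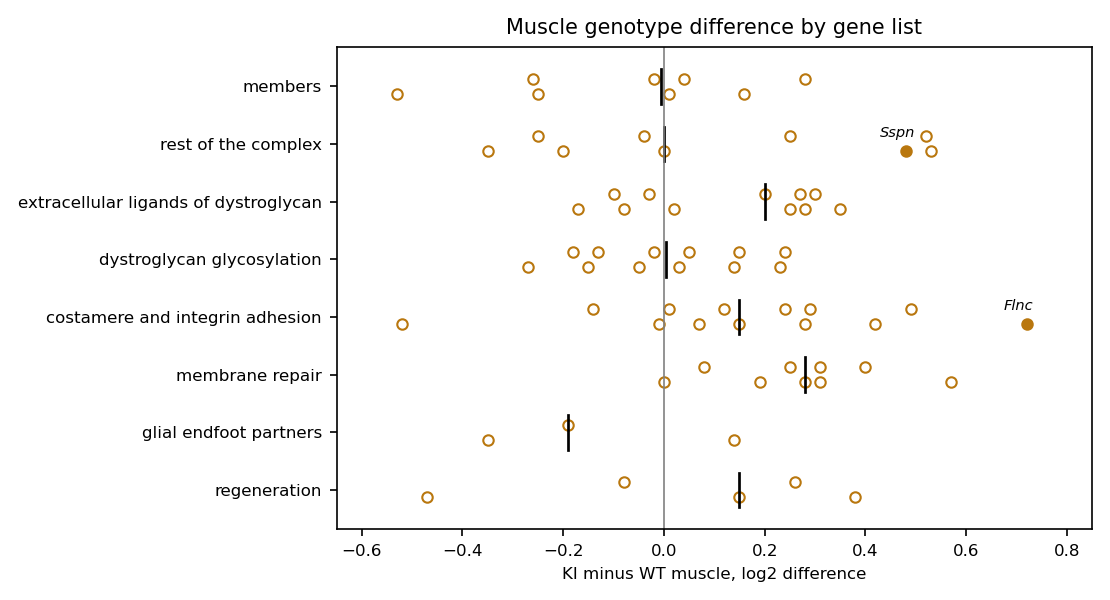
KI minus WT log2 differences in muscle of each tested gene, by list; circles are genes, filled circles have an adjusted p under 0.05 in limma, and black bars are list medians. The members' median (-0.002) is near 0, the membrane repair median is 0.278, and the filled circles are Sspn (0.48) and Flnc (0.72).

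Over all lists without the members, 62 genes were tested in muscle, with 2 called higher, against 2.66% of all genes, and none lower. An unadjusted p under 0.05 was found for 17, against 20.3% of all genes. The KI arrays did not overlap the WT arrays for 37 of the 62, against 50.2% of all genes. KI was above WT in 27 of them and below in 10, against 30.3% and 19.9% of all genes. The median difference was 0.140. In the cerebellum 56 genes were tested, limma called none, and the median was 0.021. An unadjusted p under 0.05 was found for 3, against 5.33% of all genes. There the arrays of 22 did not overlap, near the 35.3% of all genes.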

How the data were processed

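The values deposited by the authors were log2 expression levels per probe set, and the submitters' processing notes name GCOS and RMA for them. RMA corrects background, normalises arrays to 1 distribution and summarises probes, so small differences are damped at low signal. Versions, filters and the genome build are not stated in those notes.

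Platform annotation named 21789 of 35556 probe sets with 1 gene symbol (19938 genes), and the brightest probe set of a gene was kept. Testing in a tissue required that 2 of its 4 arrays reached their 40th percentile. One model with a mean per group was fitted over the 8 arrays with limma 3.58.1 in R 4.3.3 (4 residual, 5.30 prior degrees of freedom), and p values were adjusted by Benjamini-Hochberg over all tested genes. The procedure was tested on simulated data. Errors are SE of the fit or SD over 2 arrays. List levels are log2 of summed linear levels.

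The members and lists were chosen with earlier results of these data known. Named were members, Tbp, called list genes, up to 4 list genes per tissue with the smallest p, and genes most like Dmd. Some listed genes are not reported here. Filters, probe set choice, variance model, normalization, replicate block, arrays and threshold were varied.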

Additional observations from a re-analysis of the deposited data

How the results depend on the processing

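The counts of members called stayed at 0 for genotype within either tissue and for the difference between tissues, and at 5 for muscle against cerebellum, under every alternative run. Over those alternatives the muscle difference of Dmd ran from 0.16 to 0.40 (adjusted p from 0.208 to 0.692) and that of Sntb1 from -0.72 to -0.34 (adjusted p from 0.0973 to 0.421). With 2 arrays per group the precision is limited, and signal near the 40th percentile limits Sgca in the cerebellum. Signal below the array medians limits Sgcd there as well. Only another quantile normalization, median-centred arrays or the omission of an array of a compared tissue could move a member's estimate. The other cases counted here could not change sign. Member differences for genotype, none of them called, changed sign in 7 of 136 cases in muscle, 14 of 134 in the cerebellum and 16 of 136 for the interaction. The muscle minus cerebellum differences, called or not, changed sign in 0 of 136. The cause was not tested.

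Of all genes, 495 were called in muscle, and 246 without a filter, 236 over every probe set with 1 symbol, 155 from a fit of muscle arrays only, and 995 at an adjusted p under 0.1. Leaving out 1 array gave 105 to 385. In the cerebellum 28 were called, 18 without a filter and 4 to 29 without 1 array. For the difference between tissues 21 were called, 3 without a filter, 38 with the filter at the 60th percentile, 0 over every probe set, 63 with trended and robust variances, 108 at an adjusted p under 0.1 and 0 to 23 without 1 array.

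In muscle 1 gene of the complex was called, but 0 without a filter, over every probe set, after another quantile normalization or from muscle arrays only, 2 at an adjusted p under 0.1 and 0 to 1 without 1 array. Of the 62 genes in all lists without the members 2 were called. The count was 0 without a filter, over every probe set or from muscle arrays only, and 1 after another quantile normalization. It was 5 with the filter at the 60th percentile, trended and robust variances or median-centred arrays, 6 at an adjusted p under 0.1 and 0 to 1 without 1 array. Sspn was called in 5 of 17 alternatives and Flnc in 10 of 17.

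Replicate numbers recur between tissues. Deviations of same-numbered arrays correlated at 0.0566 (94 and 97) and -0.0965 (95 and 96), a single value per genotype because the arrays of a group deviate as mirror images. These values cannot tell whether same-numbered arrays came from the same mouse. The numbers were not taken as pairs in the main fit. With the replicate number as a random block, 494 genes were called for genotype in muscle, 27 for genotype in the cerebellum and 18 for the interaction, and with a fixed block 14 for the interaction. No member's call changed with the block.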
